A study of Drosophila melanogaster with 3 samples.

Results

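At promoters of non-coding RNA genes that stand apart from protein-coding promoters lay 508 candidate regions for the tagged CG4820 protein, of 21656 in the pooled list. Each had its summit, the point of highest signal, within 500 bp of an annotated transcription start site (TSS) of a gene of Ensembl biotype ncRNA. Each also had its summit more than 500 bp from every TSS of a protein-coding gene. The authors' final list of reproducible peaks, called the optimal list, held 132 of the 508. Candidate lists hold peaks and background by their label, so a candidate need not be a bound site. The biotype is wider than long non-coding RNA. Genes named lncRNA accounted for 400 candidates, antisense genes named asRNA for 62, microRNA genes for 32 and other small or host RNAs for 14.

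The protein was mapped by chromatin immunoprecipitation and sequencing (ChIP-seq) in Drosophila melanogaster embryos, with an antibody against green fluorescent protein (GFP). The embryos came from 1 transgenic line, strain CG4820-GFP, which stably carries CG4820 with GFP fused to its C-terminal end. Male and female embryos were pooled whole at 0 to 16 h of age. They made up 3 biological replicates of 1 group, and no untagged or mutant group was compared. The replicate lists held 26597, 27004 and 26145 candidates, and the optimal list 4876 peaks. Sequencing depth is unknown, because the files hold peaks and no read totals. In whole embryos, strong binding in few cells and weak binding in many cannot be told apart.

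CG4820 is a zinc-finger protein of the ZAD type, a large insect family in which several members bind insulators and promoters. Long non-coding RNAs are transcribed by RNA polymerase II like messenger RNAs but carry no long reading frame. Few of those in the fly have a known function, and many are expressed at low levels or in restricted tissues. A promoter holds the start site and the nearby sequence that the transcription machinery reads, and the annotated starts of rarely expressed RNAs are often placed less exactly than those of messenger RNAs. For a microRNA the annotated gene is the hairpin, so its annotated start need not be the start of the primary transcript.

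The 101 bases around 10 summits are shown, read from the RefSeq genome of build dm6 on the strand of the ncRNA gene. The first 5 were taken from the candidates of highest signal. The next 3, at flam, Hsromega and TS2, are RNAs with established names whose candidates reached the optimal list. The last 2, at yar and roX1, did not reach it and were chosen after their values were seen. Capitals mark every run of 6 or more bases that are all A or T.
CR31044, chr3R:29214399-29214499, plus strand: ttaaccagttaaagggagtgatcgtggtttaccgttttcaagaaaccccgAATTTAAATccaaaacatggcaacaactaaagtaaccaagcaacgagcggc
CR31840, chr2L:14024017-14024117, minus strand: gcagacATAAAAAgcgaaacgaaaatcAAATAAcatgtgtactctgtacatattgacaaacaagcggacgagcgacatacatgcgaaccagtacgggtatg
CR46102, chr3R:25738146-25738246, plus strand: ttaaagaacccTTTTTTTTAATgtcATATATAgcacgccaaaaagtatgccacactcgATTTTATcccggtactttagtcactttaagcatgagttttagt
CR43626, chr3L:3250137-3250237, plus strand: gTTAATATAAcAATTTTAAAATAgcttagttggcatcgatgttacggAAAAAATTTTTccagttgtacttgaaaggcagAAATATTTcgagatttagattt
CR44429, chrX:15298454-15298554, minus strand: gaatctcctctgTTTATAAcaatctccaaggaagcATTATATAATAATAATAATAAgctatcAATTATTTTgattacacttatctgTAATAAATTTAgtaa
flam, chrX:21631651-21631751, plus strand: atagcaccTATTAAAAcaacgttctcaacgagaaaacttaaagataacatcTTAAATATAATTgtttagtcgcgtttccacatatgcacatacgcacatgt
Hsromega, chr3R:21296268-21296368, plus strand: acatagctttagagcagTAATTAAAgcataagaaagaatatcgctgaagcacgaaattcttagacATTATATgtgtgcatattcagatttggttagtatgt
TS2, chr2L:3587379-3587479, minus strand: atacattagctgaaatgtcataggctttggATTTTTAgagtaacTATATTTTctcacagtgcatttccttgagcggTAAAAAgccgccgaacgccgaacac
yar, chrX:362247-362347, plus strand: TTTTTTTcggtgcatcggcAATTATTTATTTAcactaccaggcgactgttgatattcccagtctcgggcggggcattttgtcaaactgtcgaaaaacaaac
roX1, chrX:3862524-3862624, minus strand: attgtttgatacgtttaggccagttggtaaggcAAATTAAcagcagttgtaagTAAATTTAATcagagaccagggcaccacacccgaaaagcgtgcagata

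All 10 windows held at least 1 such run. The window at CR44429 was the richest in A+T of the 10, at 77.2%, and its longest run spanned 21 bases. The window at yar had 57.4% A+T. The windows at CR31044 and CR31840, the candidates of highest signal shown, had 58.4% each, as little as the window at roX1.

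Candidates at ncRNA promoters reached the optimal list less often than those at protein-coding promoters and more often than those away from both. The share was 132 of 508 at ncRNA promoters (26.0%, 95% Wilson interval 22.4 to 30.0%), against 2156 of 6231 at protein-coding promoters (34.6%, 33.4 to 35.8%). Among 14917 candidates away from both kinds of promoter, 2588 (17.3%, 16.8 to 18.0%) were on the list. Over all candidates the share was 22.5%. The difference was -8.62 percentage points from protein-coding promoters (95% Newcombe interval -12.4 to -4.46) and 8.63 points from candidates away from both (4.96 to 12.7). Against all other candidates it was 3.55 points, with an interval from -0.12 to 7.57 that includes 0. The group at protein-coding promoters includes 251 candidates that were also within 500 bp of an ncRNA TSS, and without them its share was 34.7%. These intervals cover counting error over regions and not variation between embryos.

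**Figure D1:**
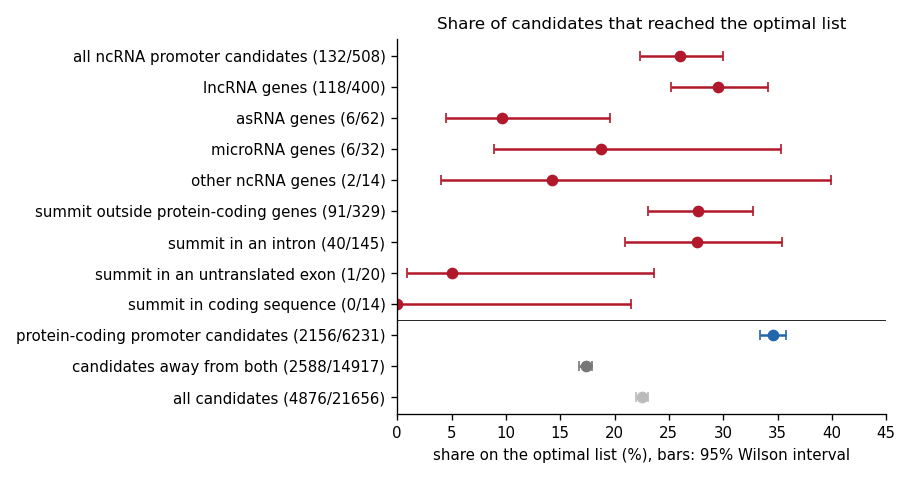
Share of candidates on the optimal list (x axis, percent) for candidates at ncRNA promoters, by gene class and by the place of the summit, and below the line for the other groups. Points are shares, bars are 95% Wilson intervals, and the numbers in brackets are peaks on the list over candidates. Candidates at lncRNA genes stood at 29.5% and those at asRNA genes at 9.68%, while all ncRNA promoter candidates stood at 26.0% and all candidates of the series at 22.5%.

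Reaching the optimal list amounted to a rank in the pooled list. All 4876 optimal peaks had an identical pooled candidate. The lowest signal on the list was 100.834, at rank 4876, and the highest signal off it was 100.827, at rank 4877. The signal is the authors' own value for each peak and is used here only to describe and rank peaks within 1 list. For the ncRNA promoter candidates the median signal percentile in the pooled list was 55.6 (95% interval of the median 52.1 to 61.3), against 65.4 for protein-coding promoters (64.1 to 66.4) and 43.8 for candidates away from both (43.1 to 44.5). Once on the list, the groups lay close together, with a median signal of 177 at ncRNA promoters, 183 at protein-coding promoters and 171 over the whole list. All were cut at the same signal, so close medians are partly built in. No candidate at an ncRNA promoter ranked above 61.

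**Figure D2:**
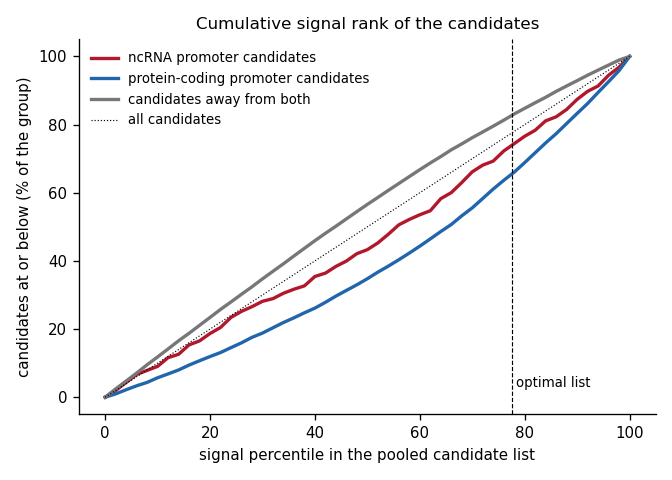
Cumulative share of candidates (y axis, percent of each group) at or below each signal percentile of the pooled list (x axis), with all candidates as the dotted diagonal. The curve of the ncRNA promoter candidates (median 55.6) runs between that of the candidates away from both (median 43.8) and that of the protein-coding promoters (median 65.4), and the dashed line marks where the optimal list begins.

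The replicates ordered the groups the same way. Chosen by the same rule in each replicate's own list, 579, 594 and 605 candidates lay at ncRNA promoters in replicates 1, 2 and 3. Their median signal percentiles were 55.7, 55.5 and 55.2, against 68.7, 66.5 and 67.4 at protein-coding promoters and 44.2, 44.1 and 44.9 away from both. In each replicate the value at ncRNA promoters lay between the other 2. The mean difference from protein-coding promoters was -12.1 ± 1.02 percentile points (SD, n = 3), negative in 3 of 3 replicates. An exact two-sided sign-flip permutation test gave p = 0.25, the smallest that 3 replicates allow, so this design cannot pass a limit of 0.05.

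The share among each replicate's 4876 highest-signal candidates showed the same order. It was 22.8, 21.5 and 21.0% at ncRNA promoters, where all candidates gave 18.3% in replicate 1, 18.1% in replicate 2 and 18.6% in replicate 3. At protein-coding promoters it was 33.2, 30.3 and 32.3%, and away from both it was 13.0, 13.4 and 14.0%. The difference from protein-coding promoters averaged -10.1 ± 1.29 points (SD, n = 3; exact sign-flip permutation p = 0.25).

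Among the gene classes, which follow the gene names, asRNA genes stood apart from lncRNA genes. The optimal list held 6 of 62 candidates at asRNA genes (9.68%, 95% Wilson interval 4.51 to 19.5%), against 118 of 400 at lncRNA genes (29.5%, 25.2 to 34.1%). The difference was -19.8 points (95% Newcombe interval -26.8 to -9.07). The place of the summit moved with the class. Summits in exons of protein-coding genes made up 10 in coding sequence and 8 in untranslated exons at asRNA genes, against 2 and 6 at lncRNA genes. Among candidates in introns the asRNA share was 4 of 29 and the lncRNA share 31 of 100, a difference of -17.2 points whose interval (-29.9 to 1.47) includes 0. Outside protein-coding genes 2 of 15 asRNA and 86 of 292 lncRNA candidates were on the list. The part of the summit's place in the class difference was not tested. Sorted by position and not by name, the gap was smaller. Where the gene overlapped a protein-coding gene on the other strand only, 33 of 147 candidates were on the list (22.4%, 16.5 to 29.8%). On the same strand it was 12 of 53 (22.6%), and without overlap 87 of 308 (28.2%, 23.5 to 33.5%). Over all candidates of the series it was 22.5%.

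Exons of protein-coding genes held almost none of the optimal peaks. Of 14 candidates with a summit in coding sequence 0 were on the list (95% Wilson upper limit 21.5%), and of 20 in untranslated exons 1 was. Together this was 2.94% of 34, against 27.6% of the other 474 candidates, a difference of -24.7 points (95% Newcombe interval -29.5 to -12.1). The exception was 1 of the candidates at CR43626, in an untranslated exon of CG43389. In introns of protein-coding genes 40 of 145 (27.6%) reached the list, and outside protein-coding genes 91 of 329 (27.7%). Over all candidates of the series the share was 22.5%. It was not counted for all those in exons, so a low share there may not be particular to ncRNA promoters.

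At microRNA hairpins 6 of 32 candidates reached the list (18.8%, 8.89 to 35.3%), and at the other RNAs 2 of 14, Uhg4 and the small nucleolar RNA gene Or-ACA9. The microRNA genes were mir-9377 in an intron of Tis11 (rank 679), mir-9378 in CG17124 with 2 candidates (ranks 888 and 4780), mir-2491 (rank 2328), mir-34 (rank 4515) and mir-ban (rank 4618). The last, bantam, is a microRNA that promotes growth and survival of cells. Its candidate ranked 3086, 7807 and 4100 in the 3 replicates, and that of mir-34 ranked 10424, 4465 and 2754, so each lay beyond rank 4876 in 1 replicate. The weaker candidate at mir-9378 ranked 5826, 5496 and 3507, so only replicate 3 had it among the 4876 highest.

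Optimal peaks were spread over the arms. The share on the list was 34 of 117 on 2L (29.1%, against 22.2% of all candidates on that arm), 29 of 89 on 2R (32.6%, against 22.5%) and 24 of 132 on 3L (18.2%, against 21.4%). It was 27 of 100 on 3R (27.0%, against 22.8%) and 18 of 64 on X (28.1%, against 24.6%). On the small chromosome 4 it was 0 of 6, with an upper Wilson limit of 39.0%, against 20 of 186 of all candidates there (10.8%). The intervals of the 5 large arms overlapped, from 12.5 to 25.6% on 3L at the low end to 23.7 to 42.9% on 2R at the high end. On 2R the interval lay above the 22.5% of all candidates there, while on the other arms it included the arm's share. Differences between arms were not tested.

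Summits at ncRNA promoters lay on both sides of the start. The rule itself used the distance to both kinds of TSS, so positions are given as a description, with no test. It also left out 251 of 759 summits near an ncRNA TSS because a protein-coding TSS was near, which can shape where the remaining summits lie. Upstream of the nearest TSS lay 283 of 508 summits at ncRNA promoters (55.7%), against 4488 of 6231 at protein-coding promoters (72.0%). Of the 5980 candidates at protein-coding promoters that were more than 500 bp from every ncRNA TSS, 71.9% were upstream. On the optimal list the shares were 58.3% of 132 at ncRNA promoters and 85.7% of 2156 at protein-coding promoters. In the 3 replicates 52.7, 53.4 and 49.6% of summits at ncRNA promoters were upstream, against 68.3, 67.9 and 67.6% at protein-coding promoters.

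Within the 500 bp allowed, the summits at ncRNA promoters were spread about evenly by distance from the TSS, with the side ignored. Their median distance from the TSS was 249 bp and 18.1% lay within 100 bp, where even placement in the window would give 250 bp and 20%. At protein-coding promoters the median was 135 bp and 38.5% lay within 100 bp. With those near an ncRNA TSS left out, the values at protein-coding promoters were 134 bp and 38.9%. On the optimal list the median was 258.5 bp at ncRNA promoters, against 128 bp at protein-coding promoters. By side, the spread at ncRNA promoters was less even. From 100 to 200 bp upstream lay 24 optimal and 50 other candidates, against 6 and 29 at that distance downstream. From 400 to 500 bp the order was reversed, with 14 and 36 upstream and 20 and 45 downstream.

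**Figure D3:**
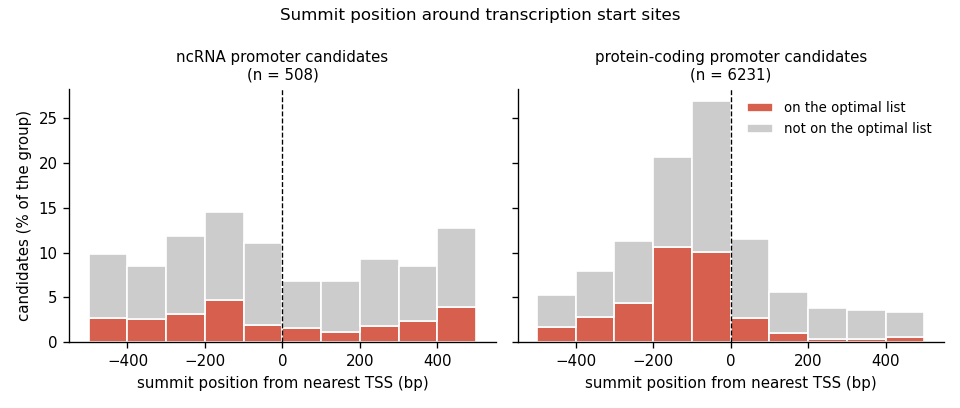
Position of the summit relative to the nearest TSS (x axis, bp, negative upstream) as a percentage of each group (y axis), for ncRNA promoters on the left and protein-coding promoters on the right, in bins of 100 bp. Red marks candidates on the optimal list and grey the others, stacked. Upstream of the start lie 55.7% of the 508 summits on the left and 72.0% of the 6231 on the right.

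At protein-coding promoters the side of the start went with the share on the optimal list, and at ncRNA promoters this was not seen. Of ncRNA promoter candidates 27.2% upstream and 24.4% at or downstream of the TSS were on the list, a difference of 2.76 points with an interval from -4.96 to 10.3. At protein-coding promoters the shares were 41.2% upstream and 17.7% at or downstream, a difference of 23.4 points (21.1 to 25.7), and the intervals of these differences did not overlap. Candidates close to the ncRNA start had no higher share. It was 18 of 92 within 100 bp (19.6%) and 27.4% farther away, a difference of -7.84 points (-16.0 to 2.27). In the outermost bin, 401 to 500 bp from the TSS, it was 34 of 115 (29.6%) at ncRNA promoters, against 139 of 539 (25.8%) at protein-coding promoters.

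The distance to the nearest protein-coding TSS gave no steady order. The list held 13 of 79 candidates at 501 to 1000 bp (16.5%, 9.88 to 26.1%), 75 of 257 at 1001 to 5000 bp (29.2%, 24.0 to 35.0%) and 44 of 172 beyond 5000 bp (25.6%, 19.6 to 32.6%). A stronger candidate summit within 500 bp accompanied 55 of the 508 candidates and 8 of the 132 optimal ones. Only 1 of these optimal ones, at CR43918, had its stronger neighbour at a protein-coding promoter, inside Dp, which encodes the partner of the cell cycle factor E2F.

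Counted by gene, 471 of 3261 ncRNA genes had a candidate of this kind (14.4%, 13.3 to 15.7%) and 124 had an optimal peak (3.80%, 3.20 to 4.52%). With candidates that were also at protein-coding promoters these became 667 (20.5%) and 197 (6.04%). Of 13945 protein-coding genes 6266 (44.9%) had a candidate within 500 bp of a TSS and 2770 (19.9%) an optimal peak. An optimal peak was at 111 of 1944 lncRNA genes (5.71%), 6 of 503 asRNA genes (1.19%) and 5 of 260 microRNA genes (1.92%). Of the 471 genes, 410 had 1 candidate, 59 had 2 and 2 had 3.

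The candidates of highest signal lay mostly at lncRNAs known only by a number. First came CR31044 (FBgn0051044; dm6 chr3R:29214255-29214612), with a signal of 1223.92 and rank 61. Its summit lay 113 bp upstream of the start of a gene of 5106 bases, outside protein-coding genes and 5723 bp from eEF1gamma, which encodes a translation elongation factor subunit. It ranked 78, 69 and 54 in the 3 replicates.

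CR44339 (FBgn0265427; chr2R:12985030-12985390) followed with a signal of 1195.7 and rank 68. Its summit lay 169 bp upstream of the TSS and 4204 bp from Psc, a Polycomb group gene. The replicates ranked it 73, 76 and 58. Like CR31044 it was among the 100 highest candidates in each replicate.

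CR31840 (FBgn0051840; chr2L:14023926-14024244) had a signal of 1021.05, rank 90, and a summit 32 bp downstream of its TSS. Its ranks were 79, 58 and 250, so replicate 3 placed it lower than the others did. A weaker candidate at the same gene, 182 bp from the TSS, ranked 5026 and missed the optimal list.

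The leading candidates in introns lay in genes of several kinds. CR45997, in an intron of the splicing regulator gene mbl, had a signal of 799.767 (rank 135; 139, 132 and 173 in the replicates). CR46102, in the lipoprotein receptor gene LpR2, ranked 234 (315, 248 and 183). The antisense gene CR44429 lies in gce, which encodes a juvenile hormone receptor, and ranked 242 (207, 294 and 231). CR46036 in osa, a gene of the Brahma chromatin remodelling complex, ranked 253 (242, 244 and 298). CR44867 in beat-Ib, of a family of neuronal surface proteins, ranked 271 (243, 284 and 273). CR44222, in the chromatin remodeller gene kis, ranked 498 (486, 571 and 519). The second antisense gene among these, CR45908 in CG1943, ranked 607 (630, 660 and 546). CR44478 in Socs36E, a gene for an inhibitor of JAK/STAT signalling, ranked 618 and varied most among these in introns (1071, 647 and 406).

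Outside protein-coding genes, CR44810 ranked 190 (200, 211 and 166) and lay 4520 bp from slbo, which encodes a C/EBP transcription factor. CR43626 ranked 239 (226, 236 and 268), CR44676 ranked 244 (240, 278 and 265) and CR45595 ranked 284 (326, 300 and 260). CR46535 ranked 310 (379, 304 and 304) and CR44917 ranked 403 (405, 443 and 376). CR45668 (rank 414; 480, 460 and 331) lay 634 bp from the actin gene Act5C. CR42657 (rank 432; 450, 440 and 475) lay 653 bp from nej, the gene for the acetyltransferase CBP. The last, CR44380, ranked 481 and was placed higher in replicate 1 than in the others (256, 598 and 512). All 20 candidates named in these paragraphs as the strongest were among the 4876 highest of every replicate.

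**Figure D4:**
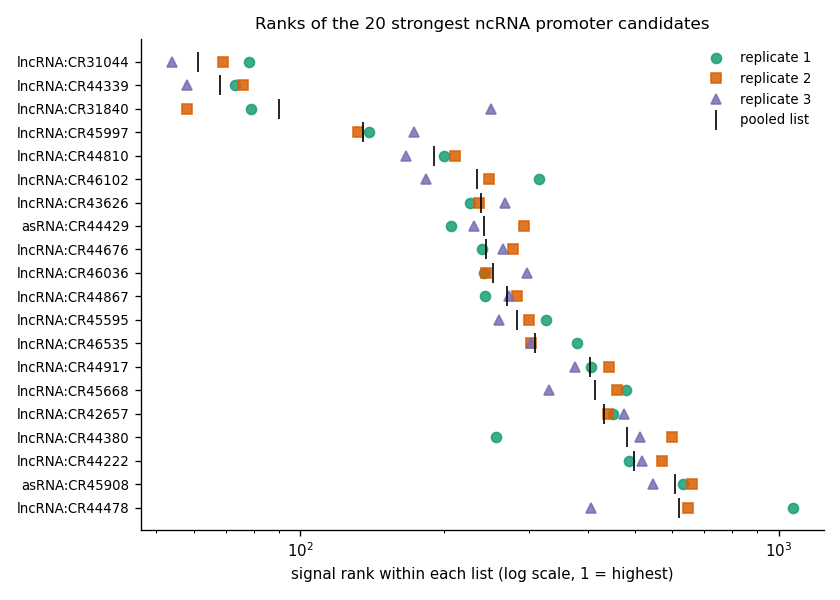
Signal rank (x axis, log scale, 1 is highest) of the 20 strongest candidates at ncRNA promoters (y axis) in each replicate (coloured symbols) and in the pooled list (black bars). The pooled ranks run from 61 for CR31044 to 618 for CR44478, and CR31840 shows a wide spread, with ranks of 79, 58 and 250.

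The other optimal candidates followed in rank. Ranks 1 to 1000 of the pooled list held 33 candidates at ncRNA promoters, ranks 1001 to 2000 held 26, ranks 2001 to 3000 held 30, ranks 3001 to 4000 held 21 and ranks 4001 to 4876 held 22. Further ones in introns down to rank 2000 were CR45325, CR43399 in ena, a regulator of actin filaments, CR45531 with 2 candidates in CG14434, CR34335 in DIP-alpha, CR44331 in the phosphatase gene puc and CR46265 in ChAT, the gene of acetylcholine synthesis. They also included CR44868 with 2 candidates in beat-Ib and CR45888 in the glypican gene dlp. Below rank 2000 came asRNA CR46145 in FER, CR44022 in Ptp99A, asRNA CR46194 in Oda, a second candidate at CR46036, CR43411 in osp, CR45808 in the kinase gene Hipk, CR45820 in Eip63E, and CR46090 in pnt, a gene of an ETS transcription factor. The lowest were CR44284 in Rab32, CR46153 in the FGF signalling gene stumps, CR45730 in vri, CR43612 in sowah, CR43256 in gus, CR45157 in CG17672, CR44749 in HmgD and CR34052 in the kinase gene Raf.

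Outside protein-coding genes, ranks to 2000 further held CR45251 with 2 candidates, CR44276, asRNA CR45999, CR45618, CR44651, asRNA CR45281, CR45290, CR42794, CR44366, CR45541, CR45645, CR45352, CR43650, CR43949, CR44700, CR43883, CR45719, CR46490, CR45451, CR43838 and CR45677. Ranks 2001 to 3000 held CR44527, CR45721, CR44828, CR44761, CR42736, CR43144, a second candidate at CR44366, CR44420, CR45588, CR46210, CR44760, CR43337, CR45642, CR45365, CR44618, CR44544, CR45998 and 2 candidates at CR46000. Between 3001 and 4000 lay CR44739, CR44526, CR45539, CR43700, CR44091, CR45564, CR43302, CR44682, CR45277, CR45355, CR46243, CR43234, CR44274, CR45568, CR45306, CR45280 and marge. The last ranks held CR45585, CR44764, CR45147, CR45695, CR46352, CR45637, CR34046, CR43928, CR45532, CR43648, CR44699, CR43837 and second candidates at CR45352 and CR45451. Signals in this last band ran from 100.976 to 116.681, just above the end of the list.

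Several genes carried more than 1 candidate. CR43626 had 3, all on the optimal list, at ranks 2205, 239 and 901. Their summits lay at 3248910, 3250187 and 3250388 on 3L, and the last of these had no overlapping candidate in replicate 2. In replicate 1 it shared a single candidate, rank 226, with its neighbour, so the pair was not resolved there. CR45157 also had 3, of which 1 was on the list (rank 4267) and the others ranked 6798 and 10753. CR46036 had candidates at ranks 253 and 2406. The weaker one ranked 2350 and 5441 in replicates 2 and 3, and in replicate 1 a single candidate, rank 242, covered both.

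Among ncRNA genes with a known role or an established name, 29 of a list of 36 symbols matched an ncRNA gene. Of the 29, 11 had a candidate of this kind and 4 an optimal one. For 3 others the candidate was also at a protein-coding promoter, and 15 had no candidate within 500 bp of a TSS. Over all 3261 ncRNA genes, 14.4% had a candidate of this kind and 3.80% an optimal one. The symbols were picked by name and are no sample of all ncRNA genes, and some are other spellings of matched ones.

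Uhg4, a host gene from whose introns small nucleolar RNAs are cut, had the highest signal of the listed genes, 384.185 (rank 637; 635, 677 and 579 in the replicates), 74 bp upstream of its start and 541 bp from Boot. The other snoRNA hosts differed from it. Uhg1 (rank 6455), Uhg3 (rank 6629) and Uhg2 (rank 20952) had candidates off the optimal list. Uhg8 had an optimal peak (rank 3706) that was also 300 bp from a TSS of CG5199, and Uhg5 a candidate just off the list (rank 4897) 247 bp from CG12863. Uhg7 had none within 500 bp of its TSSs.

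The flam gene is the source of piRNAs that silence transposons in somatic cells of the ovary. Its candidate (FBgn0267704; chrX:21631493-21631908) lay 190 bp upstream of the start with a signal of 266.753 and rank 1252, and the replicates ranked it 1515, 1257 and 1194. Hsromega produces nuclear RNA that gathers RNA-binding proteins into speckles and accumulates on heat shock. Its candidate lay 191 bp downstream of a TSS, at rank 1969 (3089, 1718 and 1454). TS2 had a candidate 40 bp downstream of its TSS at rank 2710 (3431, 2636 and 2766). These 3 were among the 4876 highest in every replicate, as was Uhg4.

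Both roX RNAs take part in dosage compensation, the raised transcription of the male X chromosome. The roX1 candidate had a signal of 61.4585 and rank 8782 (10302, 7112 and 19786 in the replicates), 123 bp downstream of a TSS, and was off the optimal list. For roX2 the nearest candidate lay 1381 bp from the TSS and 326 bp from a TSS of nod. It was on the optimal list (rank 2151), and its summit at 11580446 lay just past the end of roX2 at 11580432. The candidate at yar, an RNA of the region between yellow and achaete, missed the list at rank 5218 (5822, 4808 and 6287). Those at Vinr (rank 9842) and at the RNaseMRP RNA gene (rank 14137) were weaker. In the Bithorax region, bxd and iab4 had no candidate within 500 bp of a TSS, and that of iab8 (rank 16387) was also at a protein-coding TSS, of MSAmiP. An optimal peak (rank 3786) lay inside bxd, 1368 bp from its TSS. No candidate was within 500 bp of a TSS of let7C, sphinx, CRG, noe, cherub, acal, TS1, TS3, RNaseP RNA or either 7SL gene. Inside acal, however, an optimal peak (rank 4283) lay 1535 bp from the TSS. A candidate off the list (rank 18408) lay inside let7C, 538 bp from its TSS.

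Close to the end of the optimal list were 5 candidates that missed it by the least. CR44977, in the tumour suppressor gene brat, had a signal of 100.706 and rank 4891. Replicates 1 and 2 ranked it 5002 and 3578, and replicate 3 had no candidate there. CR43650 (rank 4932; 14046, 4224 and 5020), CR46061 (rank 4959; 4170, 8223 and 3783), the second candidate at CR31840 (rank 5026) and CR44022 in Ptp99A (rank 5054; 4951, 7779 and 7672) came next. Of the 376 candidates off the list, 2 overlapped candidates among the 4876 highest of every replicate, at CR42657 (rank 11822) and CR43337 (rank 16739). In both cases these were the same replicate candidates that overlapped an optimal neighbour at the same gene (ranks 432 and 2661), so they are no separate support for the missed ones.

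At the edges of the rule, the candidates just inside the ncRNA limit were at CR43964, 500 bp from the TSS (rank 14484), and CR44467, at 499 bp (rank 6358). Just outside were those at CR44606 and CR43704, both at 504 bp and both on the optimal list (ranks 3859 and 4012). At the protein-coding limit, CR44429 lay 505 bp from gce and CR45028 lay 510 bp from CG7702. Just excluded were CR45010, 500 bp from FucTC and on the optimal list (rank 3880), and CR45364, 494 bp from Proc (rank 5166).

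Support by replicates was close to complete for the optimal candidates and partial for the others. Of the 132 optimal candidates 130 overlapped a candidate in every replicate, against 183 of the 376 others. In single replicates 81.6% ± 2.36 of the 508 had an overlapping candidate (SD, n = 3), against 86.5% ± 3.76 at protein-coding promoters. The optimal exceptions were the third candidate at CR43626 and that at CR43837 (rank 4868), which had none in replicate 1. With the stricter demand of a place among the 4876 highest of each replicate, 95 of 132 (72.0%) had the support of all 3, against 1543 of 2156 optimal peaks at protein-coding promoters (71.6%). The optimal list was derived from these same replicate lists, so high support of its peaks was built in. Spearman's rank correlation of signal between replicates, across the candidates at ncRNA promoters with an overlapping candidate in both, was 0.733 for replicates 1 and 2 (n = 358), 0.726 for 1 and 3 (n = 345) and 0.742 for 2 and 3 (n = 351). These are correlations across regions that share their libraries, and regions are not independent replicates. An overlap of 1 bp counted, and 1 replicate candidate could serve neighbouring pooled ones. By this overlap 313 of the 508 (61.6%) were found in every replicate. With a reciprocal overlap of 50% it was 263 (51.8%), and with replicate summits within 100 bp it was 216 (42.5%).

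Optimal summits at ncRNA promoters were rich in A+T in a narrow band around the summit. Within 50 bp of the summit A+T made up 67.3% ± 8.70 of the bases in the 132 optimal candidates (SD over regions), against 59.6% ± 10.6 in the other 376. At 300 bp from the summit the order was turned round, with 54.3% ± 7.95 in the optimal candidates and 57.3% ± 8.35 in the others. Runs of 6 or more A or T bases numbered 3.11 ± 1.59 per window in the optimal candidates and 2.14 ± 1.60 in the others. The median longest run of A or T was 10 bases in the optimal candidates and 8 in the others.

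Optimal peaks elsewhere had much the same composition. Optimal peaks at protein-coding promoters had 66.2% ± 9.31 A+T at the summit and 55.8% ± 8.26 at 300 bp, and over the whole list the summit value was 67.0%, against 60.0% in candidates off the list.

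**Figure D5:**
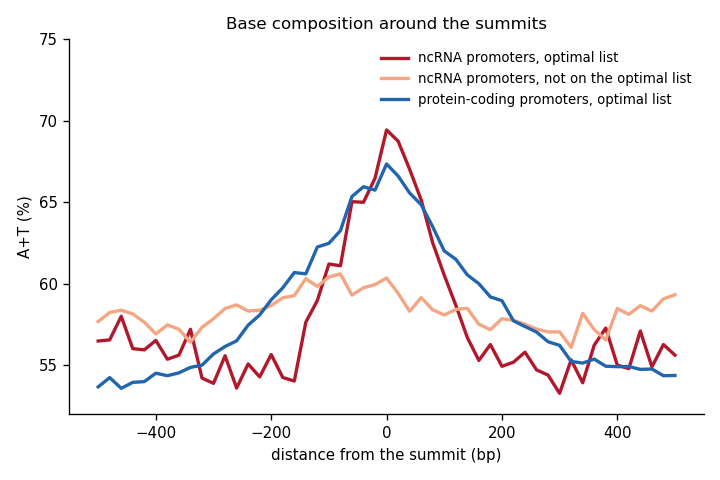
A+T content (y axis, percent) by distance from the summit (x axis, bp) for optimal candidates at ncRNA promoters, those at ncRNA promoters off the optimal list, and optimal peaks at protein-coding promoters. Within 50 bp of the summit the optimal ncRNA promoter candidates averaged 67.3%, against 59.6% for the others at ncRNA promoters, while at 300 bp they were at 54.3% and 57.3%.

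Of 8 short motifs sought by their letters on both strands within 50 bp of the summit, those of common protein-coding promoters were about as rare at ncRNA promoters as in candidates away from both kinds of promoter. The DRE, TATCGATA, bound by DREF, was in 2 of 508 windows at ncRNA promoters (0.394%, 0.108 to 1.42%), against 242 of 6231 at protein-coding promoters (3.88%, 3.43 to 4.39%), 0.255% of candidates away from both and 1.30% of all candidates. The core GTCACACT of the M1BP site was in 1 of 508 (0.197%, 0.0348 to 1.11%), against 136 of 6231 (2.18%, 1.85 to 2.58%), 0.295% of candidates away from both and 0.836% of all candidates. The shares away from both and in all candidates lay inside the intervals at ncRNA promoters, and those at protein-coding promoters did not.

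The TATA box, TATAAA, was in 34 of the 132 optimal windows (25.8%, 19.1 to 33.8%), against 51 of the 376 others (13.6%, 10.5 to 17.4%). In all candidates its share was 16.4%, and in optimal peaks at protein-coding promoters 23.4%. The homeodomain core TAATTA was in 9.09% of the optimal windows and 6.38% of the others, against 7.56% of all candidates, with overlapping intervals. Both motifs hold only A and T, which were more frequent in the optimal windows, and the part of composition in their counts was not tested. Of the 10 windows printed, CR44429 held the TATA box and Hsromega the homeodomain core, and none of the 8 motifs was in the others.

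The GAGA repeat GAGAGA was in 4.92% of windows at ncRNA promoters, against 3.48% at protein-coding promoters and 4.21% of all candidates. The Pho core GCCATT was in 1 of 132 optimal windows (0.758%, 0.134 to 4.17%) and 23 of 376 others (6.12%, 4.11 to 9.01%), against 6.02% of all candidates, with intervals that overlapped narrowly. The core AGNNGGCGC of the CTCF insulator site was in 7 of 508 (1.38%, against 1.47% of all candidates), and the Zelda core CAGGTA in 7 of 508 (1.38%, against 1.93%). Matches of different motifs were counted separately and may overlap. A match describes the letters and not a bound site.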

How the data were processed

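The deposited peak lists of 3 biological replicates, their pooled candidate list and the optimal list were used on dm6, per the labels. Per the deposited README texts, the authors applied the irreproducible discovery rate to the other lists to obtain the optimal one. Aligner and peak caller are not given in the sources used. The control is not analysed here. The signal column deposited by the authors holds each peak's enrichment on its own list's scale and was only ranked within a list. The deposited −log10 q-values were left aside. Summits came from the deposited offset column. The members and lists were chosen with earlier results of these data known.

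Starts of all transcripts came from Ensembl BDGP6.54, release 115, on 6 arms, without mature microRNAs. RefSeq supplied the dm6 sequence, where 99.5% of 30748 first codons read ATG and all 106278 peaks fitted their arms. A candidate was on the optimal list if arm, start, end and summit were identical. Shares have 95% Wilson intervals, their differences Newcombe intervals, and medians order-statistic intervals, for counting error only. Replicates were compared with exact sign-flip tests. When all 3 replicates differ in the same direction, p is 0.25 whatever their spread, which the SD gives.

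Named candidates were the 20 optimal ones of highest signal, the 5 strongest off the list, those at listed RNAs, those at the 500 bp limits and genes with most candidates. Sequences were taken from arms other than 2R. The other optimal ones are named without values. Finding starts and overlaps was tested on simulated data without error. Alternatives were other distances, starts, peak positions, RNA classes, overlap rules and motif windows, the 2438 strongest optimal peaks, and leaving out each replicate. The software was pandas 2.3.3 and NumPy 2.4.6 under Python 3.11.15, with SciPy 1.17.1 for tests and matplotlib 3.10.9 for plots.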

Additional observations from a re-analysis of the deposited data

How the results depend on the processing

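The counts followed the distance allowed, and the shares moved little. Within 250 bp of an ncRNA TSS there were 257 candidates, 64 on the optimal list (24.9%), 156 found in every replicate, and 63 genes with an optimal candidate. Within 1000 bp there were 922, 217 (23.5%), 540 and 211. Over all candidates the share on the list was 22.5%. The 2438 strongest peaks of the optimal list, of 21656 candidates, held 70 of the 508 (13.8%) and marked 64 genes. The other settings of distance, start, position, class and overlap kept each count of candidates or genes within 1.5 times, among them a distance of over 1000 bp from protein-coding starts (429 candidates, 119 optimal), the gene's own end only (530 and 136), peak midpoints (2 candidates gained and 2 lost) and overlap with an optimal peak (156 counted as optimal). A motif window of 100 bp to each side, longer by construction, raised the share at ncRNA promoters beyond its interval for 6 of 8 motifs, to 28.3% for the TATA box, 13.2% for the homeodomain core, 12.01% for GAGA, 11.02% for Pho, 4.13% for Zelda and 3.94% for CTCF, but not for the DRE (0.591%) or M1BP (0.197%). Restricting the genes to lncRNA and asRNA (462 and 124) and counting starts of mature microRNAs (510 and 132) were chosen after seeing the data, as was leaving out protein-coding promoter candidates near an ncRNA TSS (percentile difference -11.9). Without 1 replicate, 345 to 358 candidates were found in every remaining replicate and 130 to 131 optimal ones kept support, and the percentile difference from protein-coding promoters ran from -12.6 to -11.6. No paired analysis was possible because the study has 1 group. Depth is unknown, so counts of reads behind a rank cannot be given.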
